A study of Mus musculus with 3 samples.

Results

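Milk fat globule genes are described here: the 7 genes Btn1a1, Xdh, Plin2, Muc1, Muc15, Mfge8 and Lao1, listed by symbol. No measured value enters the rule, although earlier results of these data were known when the genes were proposed. All 7 are among the 19050 gene symbols of the deposited tables. Mammary epithelial cells of untreated female FVB/NJ mice, a wild-type laboratory strain, aged 10 weeks, were profiled cell by cell with 10x Genomics 3′ RNA-seq, and the 3 libraries form 1 group. Number 4 glands from 4 mice were pooled, dissociated and sorted as live epithelial cells with antibodies to CD49f and EpCAM and to the blood and vessel markers CD31, CD45 and Ter119. The labels do not state pregnancy, oestrous stage, the exact gates, or whether the libraries came from 1 pool or from separate pools. Every p-value below thus reflects how far differences between groups of cells vary between these 3 libraries, which may be a technical spread only.

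Milk fat leaves a secretory cell as a droplet that is wrapped first in a coat of droplet proteins and then, on budding, in the apical cell membrane. Butyrophilin (Btn1a1) in that membrane, xanthine dehydrogenase (Xdh) in the cytoplasm and perilipin 2 (Plin2) on the droplet surface are the classical trio that joins droplet and membrane. The mucins Muc1 and Muc15 and the phosphatidylserine-binding glycoprotein Mfge8 travel on the globule surface, and Lao1 encodes an L-amino acid oxidase that is secreted into mouse milk.

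Positions are those of the mouse gene annotation GENCODE vM21 on GRCm38, and each span covers the exons and introns of a protein-coding gene. Btn1a1 lies on chromosome 13 (23456992 to 23465901, minus strand), Xdh on chromosome 17 (73883895 to 73950196, minus) and Plin2 on chromosome 4 (86648386 to 86670060, minus). Muc1 lies on chromosome 3 (89229057 to 89233381, plus), Muc15 on chromosome 2 (110721340 to 110739527, plus), Mfge8 on chromosome 7 (79133768 to 79149060, minus) and Lao1 on chromosome 4 (118961578 to 118968912, plus). Muc15 lies inside the span of Ano3 on the opposite strand, and no source used here says whether counting used the strand. Ano3 had 0, 3 and 11 UMIs in luminal progenitor cells of libraries 1, 2 and 3 and 0 in the other classes, far below Muc15 (3704, 6028 and 9759 UMIs). Xdh shares 1 stretch with a processed pseudogene on its own strand, and reads from that stretch cannot be assigned with certainty.

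Promoter sequence is shown for Mfge8 and Muc1, the pair of members whose levels were least alike over the cell classes (Pearson r = 0.753 over 9 class sums). The 250 bases before each gene's start are given 5′ to 3′ on the gene's strand, from RefSeq on GRCm38.p6, at chr7:79149061-79149310 (minus) for Mfge8 and chr3:89228806-89229055 (plus) for Muc1. Capitals mark the letters AGGAAG, a core that ETS factors such as Elf5 bind.
Mfge8: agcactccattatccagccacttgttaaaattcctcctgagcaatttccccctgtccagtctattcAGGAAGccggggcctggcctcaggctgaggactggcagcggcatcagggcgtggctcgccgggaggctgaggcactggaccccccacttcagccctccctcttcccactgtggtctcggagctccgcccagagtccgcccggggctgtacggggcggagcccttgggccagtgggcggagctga
Muc1: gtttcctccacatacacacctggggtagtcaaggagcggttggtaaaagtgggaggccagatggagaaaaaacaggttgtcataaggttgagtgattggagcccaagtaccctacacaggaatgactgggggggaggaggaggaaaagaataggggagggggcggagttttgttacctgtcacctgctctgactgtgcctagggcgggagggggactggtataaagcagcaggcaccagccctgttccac
The letters AGGAAG occurred once for Mfge8, at bases -184 to -179 from the start, and not for Muc1. Of 32851 promoter windows of that length, 29.5% held them on either strand. The palindrome TTCNNNGAA, the core bound by STAT factors, was in neither window and in 7.02% of all windows. A match or its absence describes these letters only.

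Cells were assigned to 3 classes by their own counts. For each cell, UMIs (unique molecular identifiers, 1 per captured transcript) were summed over the basal markers Krt5, Krt14 and Acta2, the luminal progenitor markers Csn3, Elf5, Kit and Aldh1a3, and the hormone-responsive markers Prlr, Areg, Pgr and Esr1. A class needed a sum of at least 5 UMIs that was at least 3 times each of the others. Of 24352 cells kept, 9763 were basal, 7952 luminal progenitor, 2530 hormone-responsive and 4107 of no class. The rule holds none of the 7 genes, but Csn3, kappa-casein, is itself a milk protein. Without Csn3 the rule called 616, 328 and 651 luminal progenitor cells in libraries 1, 2 and 3, in place of 3099, 1639 and 3214.

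Markers outside the rule followed the class names. The basal regulator Trp63 was at 196 ± 17.0 CPM in basal cells and at 4.32 ± 2.62 and 4.96 ± 3.56 CPM in luminal progenitor and hormone-responsive cells (mean ± SD, n = 3 libraries). CPM here are counts scaled to a common library total with TMM factors, which correct for differences in composition. The luminal progenitor marker Cd14 was at 431 ± 56.3 CPM in its class and at most 19.2 CPM in any library of the others, and the hormone-responsive regulator Foxa1 at 411 ± 17.5 CPM against at most 9.29 CPM.

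Libraries held 18584156 to 30984706 UMIs in 6691 to 11120 barcodes. After filtering, pairs of libraries had 62 to 123 cell barcodes in common, which the text counts as separate cells. Library 1 stood apart in milk genes, given here as ratios to the geometric mean of libraries 2 and 3 (the mean taken on the log2 scale). In luminal progenitor cells its Csn2 (beta-casein) level was 0.0227 times that mean, and Csn1s2a (alpha-S2 casein) 0.0110 times, while Csn3 was 1.29 times. In the same cells the members' ratios were 0.419 for Muc15, 0.602 for Muc1, 0.712 for Lao1, 0.757 for Plin2, 0.898 for Btn1a1, 0.929 for Xdh and 1.39 for Mfge8. Muc15, Muc1, Lao1 and Plin2 were thus lower in library 1, by less than Csn2 and Csn1s2a, and Mfge8 was higher. Among casein-poor cells of that class, described further on, the ratios of Muc15 and Muc1 were 0.541 and 0.615. There the ratios of Plin2, Xdh, Btn1a1 and Mfge8 were 1.07, 1.11, 1.17 and 1.18, and that of Lao1 was 3.83.

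All 7 genes were higher in luminal progenitor cells than in basal cells and than in hormone-responsive cells, in every library. Fitted differences from basal cells ran from 2.32 (Mfge8) to 5.84 (Lao1) on the log2 scale, with a median of 3.95 against 0.06 over all genes. From hormone-responsive cells they ran from 3.11 (Muc1) to 5.67 (Btn1a1), with a median of 4.82 against 0.07. A call needed both a log2 difference of at least 1 and a p below 0.05 from the quasi-likelihood test of edgeR after Benjamini-Hochberg adjustment. All 7 were called in both comparisons, where 13.5% and 14.5% of 12643 genes tested were called higher. Removing Csn3 from the rule, leaving out library 1, or leaving out cells with at least 3 detected markers of another cell type left 7 of 7 called in both comparisons. The last of these removed very few classed cells and could change little.

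**Figure D1:**
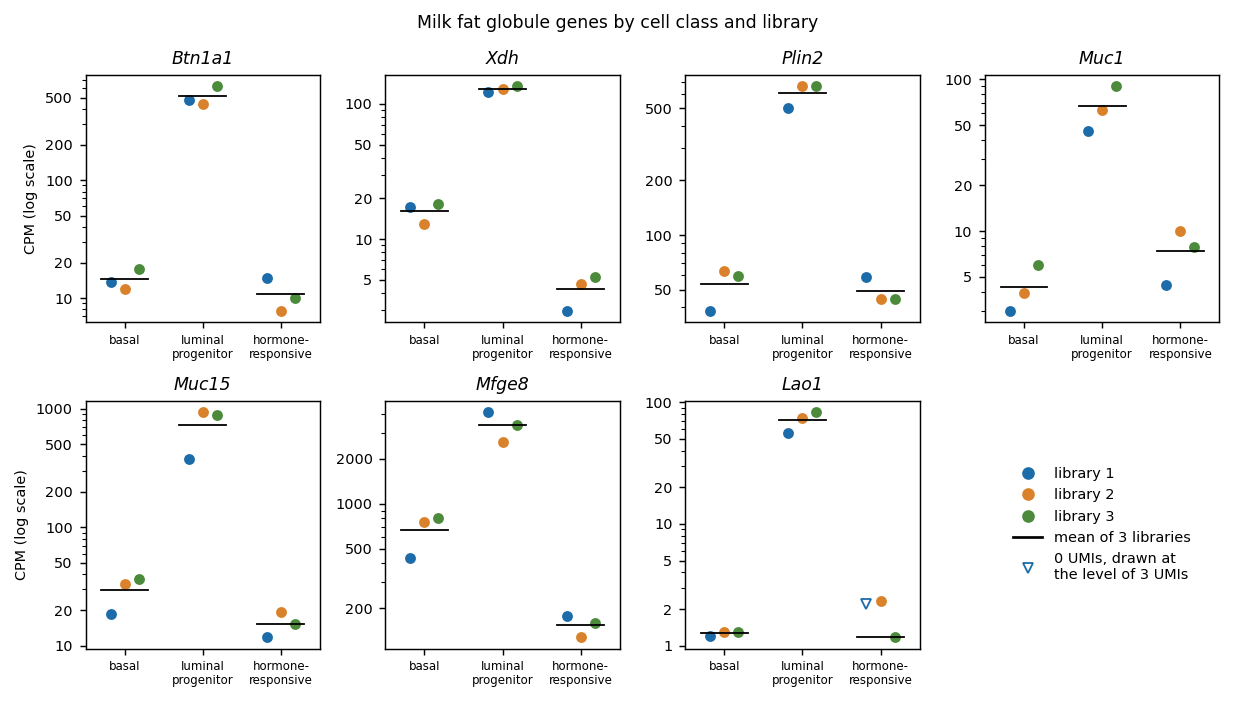
Level of each gene (CPM, log scale) in basal, luminal progenitor and hormone-responsive cells, 1 point per library with the mean of 3 libraries as a line. In each panel the 3 luminal progenitor points lie above all points of both other classes, and the open triangle marks Lao1 in hormone-responsive cells of library 1, with 0 UMIs, at its floor of 2.21 CPM.

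Butyrophilin, the membrane anchor of the trio, was at 474, 442 and 630 CPM in luminal progenitor cells of libraries 1, 2 and 3. It was at 13.7, 11.8 and 17.6 CPM in basal cells and at 14.8, 7.77 and 9.99 CPM in hormone-responsive cells. The luminal progenitor values lay far above all others, while the basal and hormone-responsive values overlapped. Btn1a1 was higher than in basal cells by 5.16 ± 0.18 (log2, SE; adjusted p = 9.74e-08, edgeR) and than in hormone-responsive cells by 5.67 ± 0.20 (adjusted p = 8.31e-08). Its basal level was 2.79% ± 0.11 of the luminal progenitor level in the same library (SD, n = 3). Of the 3 caseins Csn1s1, Csn2 and Csn3, basal cells held 2.16% ± 0.16, 2.13% ± 0.21 and 2.49% ± 0.39. Csn3 is part of the class rule, which limits its UMIs in basal and hormone-responsive cells. The Btn1a1 share was close to these casein shares, and whether basal cells express Btn1a1 was not tested.

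Xanthine dehydrogenase, a purine-breakdown enzyme that binds butyrophilin's cytoplasmic tail, was at 123, 129 and 136 CPM in luminal progenitor cells. Basal cells held 17.3, 13.0 and 18.1 CPM and hormone-responsive cells 2.95, 4.66 and 5.24 CPM. The 3 classes did not overlap, and the order luminal progenitor, basal, hormone-responsive held in each library. Xdh was higher in luminal progenitor than in basal cells by 3.02 ± 0.15 (adjusted p = 3.96e-07, edgeR) and than in hormone-responsive cells by 4.82 ± 0.19 (adjusted p = 1.61e-07). Its basal level was 12.5% ± 2.09 of the luminal progenitor level, and at 10.1% to 14.1% it was above the share of each of the 3 caseins in all 3 libraries.

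Perilipin 2, which coats lipid droplets in most cell types, was at 501, 663 and 660 CPM in luminal progenitor cells. It was at 38.2, 63.3 and 59.7 CPM in basal and at 59.0, 44.3 and 44.5 CPM in hormone-responsive cells. Those last values overlapped, and both classes lay well below luminal progenitor cells. Plin2 was higher than in basal cells by 3.50 ± 0.21 (adjusted p = 9.96e-07, edgeR) and than in hormone-responsive cells by 3.64 ± 0.21 (adjusted p = 1.70e-06). The adipocyte markers Adipoq, Cfd, Lep and Car3 summed to at most 1.51 CPM in any class and library, and Cfd had 0 UMIs in all 3 classes.

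The membrane mucin Muc1, which extends a glycosylated rod from the apical surface, was at 45.4, 62.7 and 90.7 CPM in luminal progenitor cells. It was at 2.98, 3.91 and 6.02 CPM in basal and at 4.43, 10.1 and 7.85 CPM in hormone-responsive cells. Hormone-responsive values were above the basal value of the same library each time, although the ranges overlapped. Muc1 was higher in luminal progenitor than in basal cells by 3.95 ± 0.20 (adjusted p = 4.59e-07, edgeR) and than in hormone-responsive cells by 3.11 ± 0.21 (adjusted p = 3.82e-06).

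Muc15, a smaller transmembrane mucin of the globule membrane, was at 380, 935 and 880 CPM in luminal progenitor cells. It was at 18.5, 33.5 and 36.3 CPM in basal and at 11.8, 19.2 and 15.2 CPM in hormone-responsive cells. Library 1 was lowest in each class, and luminal progenitor values stood far above the rest. The differences were 4.60 ± 0.17 from basal cells (adjusted p = 1.02e-07, edgeR) and 5.56 ± 0.19 from hormone-responsive cells (adjusted p = 8.25e-08).

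Mfge8, also called lactadherin, which bridges exposed phosphatidylserine and integrins, was at 4110, 2580 and 3394 CPM in luminal progenitor cells. It was at 436, 758 and 805 CPM in basal and at 176, 128 and 160 CPM in hormone-responsive cells. The classes did not overlap and kept 1 order in all libraries, but libraries moved in opposite ways: library 1 was highest in luminal progenitor and lowest in basal cells. The difference from basal cells was 2.32 ± 0.26 (adjusted p = 6.48e-05, edgeR), with log2 ratios of 3.24, 1.77 and 2.08 within libraries 1, 2 and 3, and it was 1.95 without library 1. The difference from hormone-responsive cells was 4.45 ± 0.29 (adjusted p = 2.89e-06), with ratios of 4.33 to 4.54.

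Basal Mfge8 was 10.6%, 29.4% and 23.7% of the luminal progenitor level in libraries 1, 2 and 3. Each of these shares was above those of the 3 caseins in the same library. Fibroblast markers (6 genes, none at 0) summed to 25.4, 51.4 and 80.9 CPM in the same basal sums, also lowest in library 1, while endothelial markers (5 genes, none at 0) summed to 19.96, 4.95 and 6.22 CPM, highest in library 1. The part of such cells in the Mfge8 values was not tested beyond leaving out cells with their markers. With cells holding at least 3 detected markers of another cell type left out, the fitted difference was 2.33, against 2.32 with them. That filter kept 1488 of 1494, 4324 of 4338 and 3923 of 3931 basal cells in libraries 1, 2 and 3. With so few cells removed the fitted value could hardly move, so this check cannot show how much such cells add.

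Lao1, the secreted amino acid oxidase, was at 55.7, 74.0 and 82.7 CPM in luminal progenitor cells, from 543, 477 and 917 UMIs. Basal cells held 1.19, 1.30 and 1.29 CPM, from 4, 13 and 9 UMIs. Hormone-responsive cells held 0, 9 and 5 UMIs, of which the last 2 came to 2.33 and 1.19 CPM, and the 0 in library 1 allows a level of up to 2.21 CPM. These levels rest on few counts, and floors and intervals cover counting error only. Lao1 was higher in luminal progenitor than in basal cells by 5.84 ± 0.27 (adjusted p = 2.60e-07, edgeR) and than in hormone-responsive cells by 5.66 ± 0.31 (adjusted p = 9.54e-07).

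Between the 2 classes where the genes were low, Mfge8 and Xdh were lower in hormone-responsive than in basal cells, by -2.12 ± 0.26 (adjusted p = 0.000107, edgeR) and -1.79 ± 0.21 (adjusted p = 6.93e-05). Both held in every library. Of 12643 genes, 21.2% were called lower and 14.4% higher in this comparison, so 2 of 7 is close to the share of all genes. Muc15 (-0.96, adjusted p = 0.00128) and Muc1 (0.84, adjusted p = 0.017) missed the fold threshold in edgeR. Btn1a1 (-0.51, adjusted p = 0.0532), Plin2 (-0.14, adjusted p = 0.574) and Lao1 (0.18, adjusted p = 0.773) were not called, and their log2 ratios differed in sign between libraries.

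**Figure D2:**
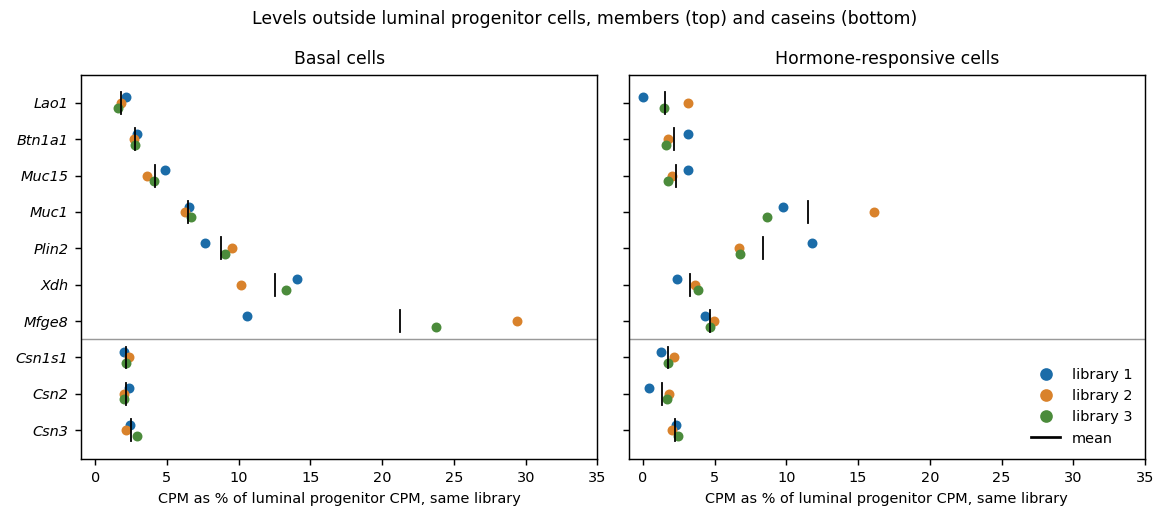
Level in basal (left) and hormone-responsive cells (right) as a percentage of the luminal progenitor level in the same library, for the 7 genes above the line and for the caseins Csn1s1, Csn2 and Csn3 below it; points are libraries and bars their means. In basal cells Lao1 and Btn1a1 sit beside the caseins near 2% to 3%, while Mfge8 reaches 29.4% and Xdh 14.1%.

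In hormone-responsive cells, Btn1a1 (2.15% ± 0.84), Muc15 (2.30% ± 0.72) and Lao1 (1.53% ± 1.58) stood at percentages close to those of Csn1s1 (1.72% ± 0.46) and Csn3 (2.24% ± 0.22). Xdh was at 3.29% ± 0.78 and Mfge8 at 4.65% ± 0.34. Plin2 (8.40% ± 2.93) and Muc1 (11.5% ± 4.02) were higher. In each library Xdh, Mfge8, Plin2 and Muc1 exceeded the shares of the 3 caseins. In library 1 Xdh did so only narrowly, at 2.40% against 2.27% for Csn3. Hormone-responsive cells there held 0.291% of 1374 Xdh UMIs and 1.10% of 544 Muc1 UMIs, so these 2 values rest on very few counts. In basal cells, not only Mfge8 and Xdh but also Plin2 (8.74% ± 0.996), Muc1 (6.48% ± 0.21) and Muc15 (4.19% ± 0.65) did so in each library. The order over genes thus differed between the classes: Mfge8 and Xdh stood at the top in basal cells, Muc1 and Plin2 in hormone-responsive cells. No test of that order was run.

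At the level of single cells, Mfge8 was present in most luminal progenitor cells and Lao1 in few. Each cell was thinned to 2000 UMIs so that depth did not set the shares, which left out 5068 of 9763 basal, 1454 of 7952 luminal progenitor and 423 of 2530 hormone-responsive cells. A UMI of Mfge8 was then present in 96.3% ± 2.61 of luminal progenitor cells, of Muc15 in 66.6% ± 16.9, of Plin2 in 61.6% ± 6.03 and of Btn1a1 in 50.8% ± 4.84. Xdh was detected in 20.6% ± 0.90, Muc1 in 11.5% ± 3.57 and Lao1 in 8.87% ± 0.89. Unthinned, at a median of 3213 UMIs, the shares were 98.8%, 74.6%, 72.6%, 62.5%, 32.0%, 18.7% and 12.4% in the same order.

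In basal cells, thinned alike, Mfge8 was detected in 67.5% ± 12.4, against 26.2% ± 3.93 of hormone-responsive cells. Plin2 was detected in 9.44% ± 2.11 of basal cells and 9.97% ± 1.23 of hormone-responsive cells. Xdh was detected in 3.07% ± 0.74 of basal cells but in 0.649% ± 0.57 of hormone-responsive cells, and Muc15 in 5.53% ± 1.72 and 2.39% ± 1.18. Btn1a1 (2.99% and 1.95%), Muc1 (0.774% and 1.35%) and Lao1 (0.238% and 0.239%) were rare in both. For comparison, Csn3, which is part of the class rule, was found in 22.6% ± 6.66 of basal and 20.5% ± 3.85 of hormone-responsive cells. It was found in 95.5% ± 3.73 of luminal progenitor cells. The shares of all members but Mfge8 lay below those of Csn3. These members were also found in fewer luminal progenitor cells than Csn3, so a lower share cannot tell whether they are expressed in either class. Their shares are not read as expression or as its absence. Mfge8 lay above the Csn3 share in both classes in every library. The class rule limits Csn3 in these classes, because their own marker sum must be at least 3 times the sum that holds Csn3. Mfge8 has no such limit, so its higher share is not read as expression either. The unthinned shares for Mfge8 were 63.6% at a median of 1966 UMIs in basal and 38.8% at 3526.5 UMIs in hormone-responsive cells.

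Luminal progenitor cells held several of the 7 genes each, and few held most of them. At 2000 UMIs per cell, 3 or more of the 7 were found in 59.1%, 73.8% and 78.1% of luminal progenitor cells of libraries 1, 2 and 3. The shares were 0.734%, 1.59% and 1.61% of basal cells and 0.356%, 0.742% and 0.197% of hormone-responsive cells. The mean number of members per luminal progenitor cell was 2.82, 3.29 and 3.38, and 5 or more were found in 7.94%, 15.8% and 16.4%. These shares were not compared with detection of each gene independently.

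**Figure D3:**
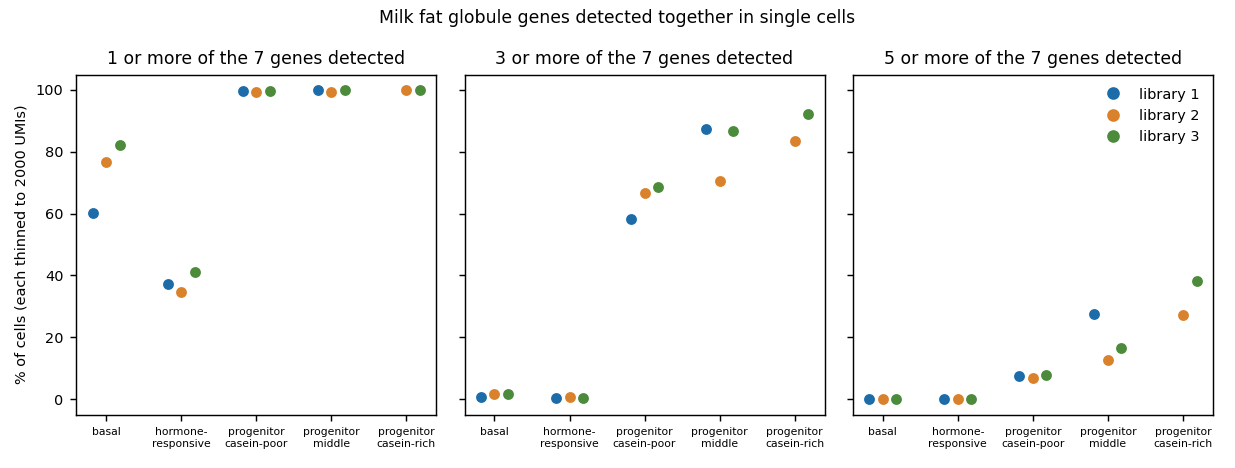
Share of cells (%, each thinned to 2000 UMIs) with 1, 3 or 5 or more of the 7 genes detected, by class and library; luminal progenitor cells are divided by their casein share, and library 1 has too few casein-rich cells to be drawn. At 3 or more genes, basal and hormone-responsive cells stay at 1.61% or less, while luminal progenitor ranges lie between 58.4% and 92.3%.

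Cells with at least 3 detected markers of fibroblasts (155 cells, 139 of no class) or of endothelial cells (68, of which 63 had no class) were few. Counts of the no-class cells were pooled over libraries, so they carry no error. The 155 fibroblast-marker cells were 1, 71 and 83 in libraries 1, 2 and 3, so their pooled values come almost only from libraries 2 and 3. In fibroblast-marker cells Mfge8 was at 492 CPM, Plin2 at 143 CPM and Xdh at 136 CPM, scaled by total counts, and Lao1 had 0 UMIs in 139 cells. In endothelial-marker cells Mfge8 was at 634 CPM, Plin2 at 106 CPM and Xdh at 79.2 CPM. Xdh in fibroblast-marker cells, with 38 UMIs behind it, was thus near its level in luminal progenitor cells (123 to 136 CPM, scaled with TMM factors). The same fibroblast-marker cells held Csn1s1, Csn2 and Csn3 at 153, 182 and 150 CPM, and the source of these UMIs was not tested.

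To see whether the genes varied with milk protein content, luminal progenitor cells were divided by the share of their UMIs from Csn1s1, Csn1s2a, Csn1s2b, Csn2 and Wap into casein-poor (under 0.5%), middle and casein-rich cells (2% or more). These are ranges of a score, not cell types, and 8, 179 and 303 cells of libraries 1, 2 and 3 had between 1.5% and 2.5%. Casein-rich cells numbered 11, 529 and 676, so library 1 gave no casein-rich sum, and the contrast rests on libraries 2 and 3 with the spread shared over 14 sums. Lao1 and Btn1a1 were higher in casein-rich cells (2 of 7, where 0.993% of 12387 genes were called higher and 1.43% lower). The members' median difference was 0.84 against -0.07 over all genes.

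**Figure D4:**
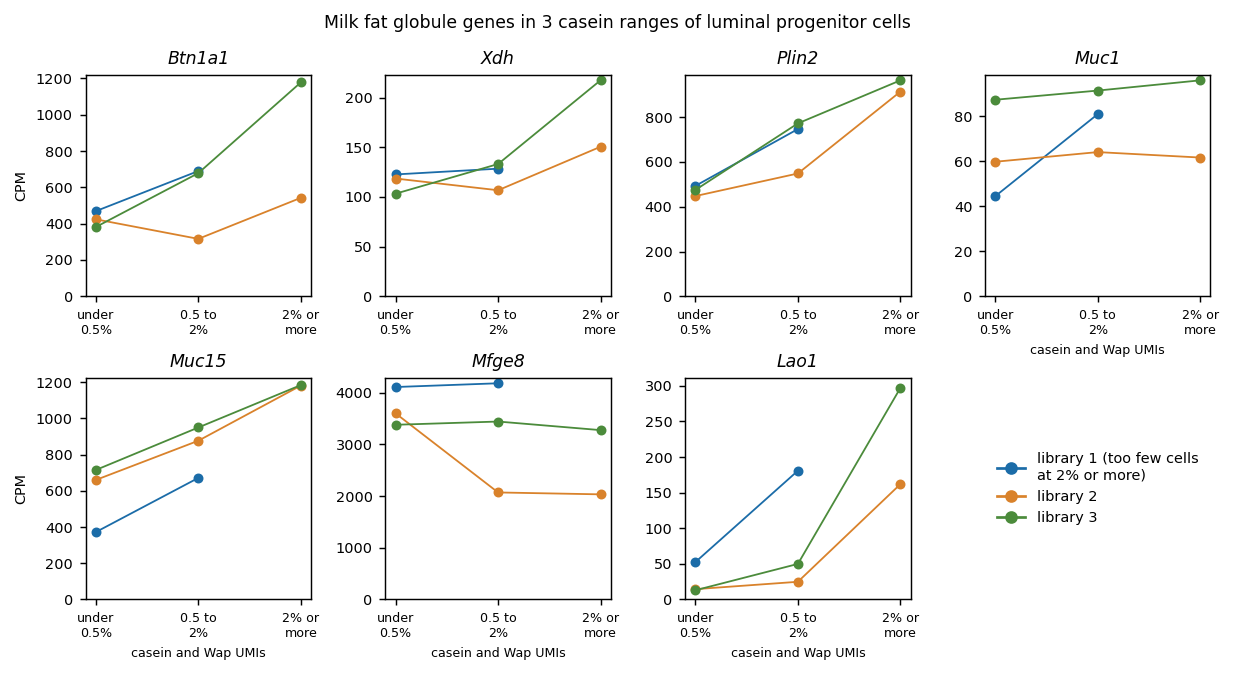
Level of each gene (CPM, linear axis from 0) in luminal progenitor cells with under 0.5%, 0.5 to 2% and 2% or more of UMIs from caseins and Wap, 1 line per library. Lao1 climbs from 14.5 and 12.9 to 162 and 297 CPM in libraries 2 and 3, and library 1 lies above both in the lower ranges. Mfge8 does not climb from the lowest to the highest range in libraries 2 and 3.

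Lao1 was at 14.5 and 12.9 CPM in casein-poor cells of libraries 2 and 3 and at 162 and 297 CPM in their casein-rich cells. The difference was 3.97 ± 0.36 (log2, SE; adjusted p = 6.31e-05, edgeR), and it was called in each of 12 alternatives. In casein-poor cells of library 1, Lao1 was at 52.4 CPM, 3.83 times the geometric mean of libraries 2 and 3. The Csn2 level there was 0.103 times its own such mean. The 62 casein-middle cells of library 1 held 181 CPM (38 UMIs), against 24.8 and 49.9 CPM in libraries 2 and 3. The Lao1 level at a given casein share thus differed between library 1 and the others, and that difference was not tested.

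Btn1a1 went from 424 and 381 CPM in casein-poor to 542 and 1178 CPM in casein-rich cells of libraries 2 and 3. The rise was 1.01 ± 0.23 (adjusted p = 0.0277, edgeR), with log2 ratios of 0.35 and 1.63 in libraries 2 and 3. Without library 3 the difference was 0.58 (adjusted p = 0.522) and was not called. Without library 1 it was 0.97 (adjusted p = 0.0323), just under the fold threshold. The call was thus lost without library 1 or library 3, and also without the library term in the fit (1.02, adjusted p = 0.199).

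Plin2 went from 448 and 475 to 915 and 965 CPM, a difference of 0.99 ± 0.20 (adjusted p = 0.0123, edgeR) that missed the fold threshold. Muc15 went from 660 and 715 to 1181 and 1184 CPM, a difference of 0.84 ± 0.15 (adjusted p = 0.0051), also under it. Both moved by nearly the same ratio in each library. Xdh, at 119 and 103 and then 151 and 218 CPM, differed by 0.70 ± 0.17 (adjusted p = 0.0326).

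Muc1, at 59.8 and 87.3 and then 61.6 and 95.9 CPM, showed 0.13 ± 0.20 (adjusted p = 0.793, edgeR). Mfge8, at 3601 and 3380 and then 2033 and 3276 CPM, showed -0.48 ± 0.27 (adjusted p = 0.407). Neither was called. With 5 or more of the 7 detected in 27.1% and 38.1% of casein-rich cells against 6.91% and 7.95% of casein-poor cells in libraries 2 and 3, co-detection was higher at high casein share in both.

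The wider milk secretion genes were counted in lists. Between luminal progenitor and basal cells, where 13.5% of genes were called higher and 17.6% lower, all 10 caseins and whey proteins tested were higher, with a median log2 difference of 5.25. That median was 4.98 with Csn1s2b, which had 0 UMIs in basal cells, at its bound. Csn2 was higher by 5.61 ± 0.22 (adjusted p = 1.24e-07, edgeR). Of 15 other milk fat globule membrane proteins tested, 5 were higher and 1 lower, with a median of 0.39. The phosphate transporter Slc34a2 was higher by 5.46 ± 0.27 (adjusted p = 3.36e-07) and the membrane scaffold Stom lower by -2.23 ± 0.23 (adjusted p = 3.94e-05).

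Relatives of the members differed in direction. None of the 5 butyrophilin family genes in the tables passed the count filter, so none was tested. Of 4 other transmembrane mucins and mucin-like proteins tested, Muc20 (5.28 ± 0.35, adjusted p = 2.02e-06, edgeR) and Muc4 (4.56 ± 0.46, adjusted p = 3.33e-05) were higher. Muc13 (-3.95 ± 0.82, adjusted p = 0.0028) and the adhesion molecule Mcam (-2.60 ± 0.25, adjusted p = 2.22e-05) were lower. Of 3 other perilipins tested, Plin5, which ties droplets to mitochondria, was higher (3.29 ± 0.53), Plin4 was lower (-2.91 ± 0.38) and Plin3 (0.72) was not called.

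Among genes of lipid droplet growth and breakdown, 6 of 13 tested were higher and 0 lower, with a median of 0.61. Cidea, which fuses droplets, had the largest difference (2.64 ± 0.33, adjusted p = 0.000127, edgeR). Fatty acid and triglyceride synthesis had 7 higher and 2 lower of 20, with a median of 0.78. Lpl, which frees fatty acids from blood lipoproteins, was higher by 3.49 ± 0.44 and the phosphatidate phosphatase Lpin2 was lower by -1.96 ± 0.16.

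Genes that act with single members were mixed. Of 12 genes tested for the molybdenum cofactor, which xanthine dehydrogenase needs, and for purine breakdown, 4 were higher and 3 lower. Adenosine deaminase Ada led the higher ones (2.31 ± 0.27, adjusted p = 8.38e-05, edgeR) and the ecto-nucleotidase Nt5e the lower ones (-4.98 ± 0.29, adjusted p = 9.89e-07). Of the 5 cofactor genes in the list, named after their values were seen, Mocs1 (1.51), Mocos (1.48) and Gphn (1.20) were called, and Mocs2 (0.70) and Mocs3 (0.96) missed the fold threshold. Of 8 relatives of Mfge8 and phosphatidylserine receptors, Tyro3 (1.68 ± 0.24) was higher and 3 were lower, led by the receptor kinase Axl (-4.56 ± 0.27). Of 8 amino acid oxidases and peroxide enzymes, 2 were higher, led by the D-aspartate oxidase Ddo (2.13 ± 0.31), and the monoamine oxidase Maob was lower (-3.12 ± 0.50).

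Prolactin signalling through STAT5 is the known hormonal drive of milk genes. Of 18 genes of that pathway and of secretory regulators tested, 6 were higher in luminal progenitor than in basal cells and 3 lower, with a median of 0.12. The lipogenic regulator Thrsp was higher by 5.41 ± 0.22 (adjusted p = 1.45e-07, edgeR), and the signal inhibitor Socs3 lower by -4.60 ± 0.42 (adjusted p = 1.69e-05). In casein-rich against casein-poor cells, Thrsp was also higher (2.94 ± 0.21, adjusted p = 5.31e-06), the only one called of the 18. There, 4 of 20 fatty acid and triglyceride genes were higher, led by Lpl (2.55 ± 0.35, adjusted p = 0.00096).

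Genes with the most similar pattern to each member over the 9 class sums were taken by Pearson correlation of log2 CPM among 8872 genes of at least 10 CPM on average. The 9 sums share libraries and cell classes, so the values describe shape only. The closest genes were the ectonucleotidase Enpp3 for Btn1a1 (r = 0.991), the tight-junction gene Cldn1 for Xdh (0.993), Cytip for Plin2 (0.991), Ppp1r2 for Muc1 (0.993), the acyl-CoA binding protein Dbi for Muc15 (0.994), Pag1 for Mfge8 (0.995) and Ldb3 for Lao1 (0.996). The second were Cytip, the transcription factor Foxc1, Mfsd6, C130074G19Rik, Timd2, Smpdl3a and Paip2b, in the same order (0.989 to 0.996). Among the members themselves, r ran from 0.753 to 0.989, the highest for Btn1a1 and Plin2.

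Cldn1 showed the Xdh order, with 35.3, 41.0 and 38.9 CPM in luminal progenitor and 4.77, 3.91 and 5.88 CPM in basal cells. Hormone-responsive cells held 0.738, 0.777 and 0.714 CPM of Cldn1, from only 1, 3 and 3 UMIs. Pag1 showed the Mfge8 pattern, lowest in library 1 among basal cells (6.26 CPM, against 10.1 CPM or more) and highest there among luminal progenitor cells (50.8, 28.9 and 44.5 CPM). Paip2b matched Lao1 in shape but not in size, at 0.78 ± 0.12 between luminal progenitor and basal cells (adjusted p = 0.00056, edgeR). Ldb3, the gene closest to Lao1, had 3, 7 and 5 UMIs in basal and 0, 4 and 3 UMIs in hormone-responsive cells. Lao1 counts were also low there, so the r of this pair rests on few counts outside luminal progenitor cells.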

How the data were processed

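The authors deposited 1 table of raw UMI counts per library, with gene symbols and cell barcodes. Libraries were made with 10x Genomics 3' v2 chemistry, per the labels' protocols. The submitters' processing notes name Cell Ranger 2.1.0 and mm10. No source used here gives the gene annotation, the cell calling or the use of strand. The tables hold 26845 barcodes, and the number of sample columns not used is 0.

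Kept barcodes had 500 or more genes detected and less than 10% of UMIs from mitochondrial genes. Doublets were scored with Scrublet (scanpy 1.11.5) in each library, and the highest scores were removed at 0.8% per 1000 barcodes (340, 646 and 982 cells). Raw counts summed per class and library entered the two-sided quasi-likelihood test of edgeR 4.0.16 under R 4.3.3, with filterByExpr, TMM factors and a term for the library, whose classes share 1 cell suspension. The 11 genes of the class rule were not tested, nor were the 5 casein score genes in the casein contrast. P-values were Benjamini-Hochberg adjusted over all genes tested. The test was checked on simulated counts in which libraries differed only in their totals and by a common random spread. That setting is simpler than these data. The genes also named are the 2 most alike to each member, and from each list the largest called change in each direction between luminal progenitor and basal cells, or every gene of a short list. Members and lists were chosen with earlier results of these data known.

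As a check of the pairing, deviations of class sums from their class means were correlated over all genes (not independent of each other). Sums of 1 library correlated at 0.263 to 0.518, those of different libraries at -0.430 to 0.112. Counts differed between every pair of libraries in every class by more than sampling noise (chi-square per degree of freedom 5.31 to 91.0). Shares of cells are means and SDs over 3 libraries with no test. Alternatives included DESeq2 1.42.0, other scaling factors, no count filter, other class rules and cell filters, thinned sums, and leaving out each library.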

Additional observations from a re-analysis of the deposited data

How the results depend on the processing

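Against both basal and hormone-responsive cells, the 7 genes were called higher in luminal progenitor cells under each of 17 alternatives, 2 of them chosen after seeing the data, with adjusted p at most 0.00142 (edgeR or DESeq2). For hormone-responsive against basal cells, 2 or 3 members were called under 15 alternatives. Muc15 became a call in 7 of them and Muc1 in 2, without library 3 (1.12) and with Acta2 left out of the basal sum (1.20).

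Values not called changed sign in that comparison for Lao1, to -0.17 with sums thinned and -0.0069 with all barcodes, and over the libraries left out in turn it ran from -0.56 to 0.41. Plin2 ran from -0.46 to 0.063 over the libraries left out, and it was 0.0603 with Acta2 left out of the basal sum.

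In the casein contrast, 2 members were called, but 1 without the replicate block, with scaling by total counts and with casein-rich cells taken from 1% of UMIs, and 1 to 2 over the libraries left out. Of all genes, 300 were called, against 124 without the replicate block, 533 with no filter on low counts, 45 with sums thinned, and 32 to 309 over the libraries left out. The called genes were higher in 41.0% of cases, in 28.9% when scaled by total counts, in 64.4% with sums thinned and in 78.1% without library 2, so the balance of directions is not stable. Btn1a1 lost its call in 6 of 12 alternatives (adjusted p up to 0.522), Plin2 gained one in 5, and Muc1 changed sign to -0.30 with sums thinned. Without library 2 or 3 a lone casein-rich sum is assumed to vary like the other groups. The causes were not tested.

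Scaling by total counts shifted the median of all genes by -0.15 for luminal progenitor against hormone-responsive cells and by 0.13 for hormone-responsive against basal cells. The replicate block changed no call of a member in the 3 class comparisons. Few counts limit Lao1 outside luminal progenitor cells (4 to 13 UMIs per basal sum), and shares of cells depend on depth: at 1000 UMIs per cell Btn1a1 was detected in 33.8% of luminal progenitor cells. Leaving out casein-rich cells lowered Lao1 to 4.45 against basal cells.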

Other observations

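Cells of no class were 1066 of 6003, 1333 of 8288 and 1708 of 10061 kept cells in libraries 1, 2 and 3. A class was given to 82.2%, 83.9% and 83.0% of kept cells, and the shares of UMIs in no-class cells are read beside this. In libraries 1, 2 and 3 the no-class cells held 13.1%, 28.3% and 14.7% of all Muc15 UMIs and 15.6%, 29.2% and 19.8% of Muc1 UMIs. Of Lao1 UMIs they held 2.32%, 10.1% and 1.79%. Luminal progenitor cells held 97.0%, 85.9% and 96.7% of Lao1 UMIs and 84.5%, 54.3% and 72.7% of Mfge8 UMIs. Library 2 had the fewest of them, 1639 against 3099 and 3214 in libraries 1 and 3.

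The 11 casein-rich cells of library 1 had 8 UMIs of Lao1 in 38823 UMIs, or 206 CPM scaled by total counts (95% exact Poisson interval 89.0 to 406, counting error only). Their Btn1a1 level was 721 CPM (479 to 1042) and their Mfge8 level 6002 CPM (5256 to 6824).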
